A study of Mus musculus with 17 samples.

Results

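The genes described here are the numbered kinases of the MAP kinase cascade, the signalling route that ends in phosphorylation of AP-1 and other nuclear factors. A gene was included when its symbol was Mapk, Map2k, Map3k or Map4k followed by digits alone, a rule that uses no measured value. It found 41 of the 24453 gene models measured by RNA-seq, namely 13 of the MAPK tier, 7 of the MAP2K tier, 16 of the MAP3K tier and 5 of the MAP4K tier.

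The study asked how individual AP-1 family members shape macrophage gene expression. Macrophages of 2 kinds, both from mice, gave 13 libraries. Immortalized bone marrow-derived macrophages (iBMDMs) carry the strain label C57Bl/6EiJ, and a mutated BRAF together with Myc had been used to immortalize them, so the control cells carry both as well. CRISPR was directed against Atf3 in the Atf3KO cells, against Jun in the JunKO cells and against Jund in the JunDKO cells, with a scramble guide as control (Scramble), and each of these 4 groups had 2 libraries. Titles of the control libraries read zsGreen where those of the knockouts read Veh, although the treatment label of all 8 is vehicle. Thioglycollate-elicited macrophages (TGEMs) are primary cells washed from the peritoneum of mice. TGEMs labelled C57Bl/6EiJ (C57Bl/6J in the study's methods) or Balb/cJ were given vehicle (Veh) or Kdo2 lipid A (KLA), which activates TLR4, and were collected after 1 h. C57Bl/6EiJ gave 1 Veh and 1 KLA library, and Balb/cJ gave 1 Veh and 2 KLA libraries.

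As background, MAP kinase signalling runs through kinases that switch each other on by phosphorylation. MAP4K and RAS proteins stand at the top, MAP3K proteins phosphorylate MAP2K proteins, and these activate the terminal MAPK proteins. ERK1 (Mapk3) is a well known target of growth factors, whereas the JNK kinases (Mapk8, Mapk9, Mapk10) and p38 kinases (Mapk11 to Mapk14) respond to stress and to ligands of Toll-like receptors. In macrophages TLR4 reaches them through TAK1 (Map3k7) and Tpl2 (Map3k8), and the enzymes are regulated mostly by phosphorylation, which RNA-seq does not measure.

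Because the cells were edited in AP-1 genes, the promoters were searched for the AP-1 recognition letters TGANTCA, where N is any base, on either strand of the window from 250 bases before to 50 bases after the start of transcription (RefSeq, GRCm38.p6). RefSeq promoters matched 32 of the 41 genes, and 3 of these genes (9.4%) held the motif, against 8.97% of all 27025 genes with such a window. The canonical site is TGAGTCA, or TGACTCA on the other strand, and of the 3 genes Map3k10 alone holds it (1 of 32, 3.1%, against 5.95% of all genes), while Map2k7 and Map2k6 match the wider letters only. The 3 sites are shown because they are the only matches to TGANTCA found among the cascade genes, with the motif in capitals and 11 bases on each side.
Map3k10, chr7:27674782-27674810, minus strand, 218 bases before the start: ccttggctaaaTGAGTCAgttaccgtgaa
Map2k7, chr8:4240002-4240030, plus strand, 92 bases before the start: tctgtccctctTGATTCAgcagaatgtct
Map2k6, chr11:110398859-110398887, plus strand, 232 bases before the start: ctctaagctgtTGATTCAggggtttttct
The palindromic CRE, TGACGTCA, which ATF proteins can bind and within which TGANTCA cannot match, was found in the promoter of 1 member, Mapk10 (3.1%), against 2.03% of all genes. A match is a description of the letters and not of binding. Members with no matched promoter included Map3k2, Map3k8, Map3k15, Map3k19, Map4k4, Mapk3, Mapk4 and Mapk15.

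Depth ran from 1553296 to 18444446 reads per library, as recovered from the step of 1 read in the deposited RPKM (reads per kilobase of exon, scaled to the mapped reads of the library). The Atf3KO libraries stood apart, with reads in 10425 and 10631 models against 11884 to 12533 in the other iBMDM libraries, and with 1.04% and 1.63% of those models at exactly 1 read against 1.87% to 9.66%. Of the targeted transcripts, Atf3 was higher in the Atf3KO libraries than in Scramble (log2 fold change 1.02, limma-trend adjusted p = 0.00237). Jun was not lower in JunKO (0.34, adjusted p = 0.912), and Jund was lower in JunDKO without passing the test (log2 fold change -0.38, adjusted p = 0.654). Atf3 measured 154 and 169 RPKM in Atf3KO against 80.7 and 77.4 in Scramble, Jun 26.2 and 20.5 in the JunKO libraries against 17.6 and 18.5, and Jund 6.94 and 6.07 in JunDKO against 9.19 and 8.33. A sum over exons does not show a small edit, so these values do not check the edits. The study checked the knockouts in protein by western blot, and reported a large loss of Jun binding sites in its Jun knockout cells. TGEMs are labelled male, yet Xist measured 19.2 to 28.1 RPKM in them and Ddx3y 0 in all 5, and the iBMDM libraries were the reverse. All 8 macrophage markers were present in every library, summing to 7803 to 33020 RPKM. In TGEMs the summed markers of B cells were 11.2 to 25.2 RPKM, of mesothelial cells and fibroblasts 31.6 to 69.7 and of mast cells 1.78 to 13.8, whereas in iBMDMs none of the 3 sums passed 0.488. Neutrophil markers summed to 12.5 to 51.7 RPKM in iBMDMs and 15.2 to 35.4 in TGEMs, T cell markers to at most 1.42 and 3.00, and eosinophil markers to at most 6.15 and 4.15. The neutrophil sums came almost wholly from S100a8 and Csf3r, while the other 6 markers of that list stayed under 1 RPKM. The RNA is bulk, so fewer cells of a type and less RNA per cell cannot be told apart.

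Most of the cascade was transcribed. Of the 41 members, 19 reached 16 RPKM in at least 1 library, a level that the study's call of differential expression also asks for, and 16 peaked between 1 and 16 RPKM. The other 6 never reached 1 RPKM. These were Mapk4, Mapk15 and Mapk10 (the neuronal JNK3), Mapk12 (p38 gamma), Map3k13 and Map3k19, and Mapk15 had 0 reads in all 13 libraries. Map2k1 (MEK1, which phosphorylates ERK1) ranked first in Scramble at a mean of 71.8 RPKM, followed by Mapk14 (p38 alpha) at 52.8, and Mapk3 at 49.2, while Map2k3 (a p38 activator) averaged 27.5. In TGEMs given Veh Mapk3 ranked first at 170 RPKM and Map2k2 (MEK2) next at 50.5, while Map2k1 averaged 32.1 and Mapk6 (the atypical ERK3) 31.1.

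**Figure D1:**
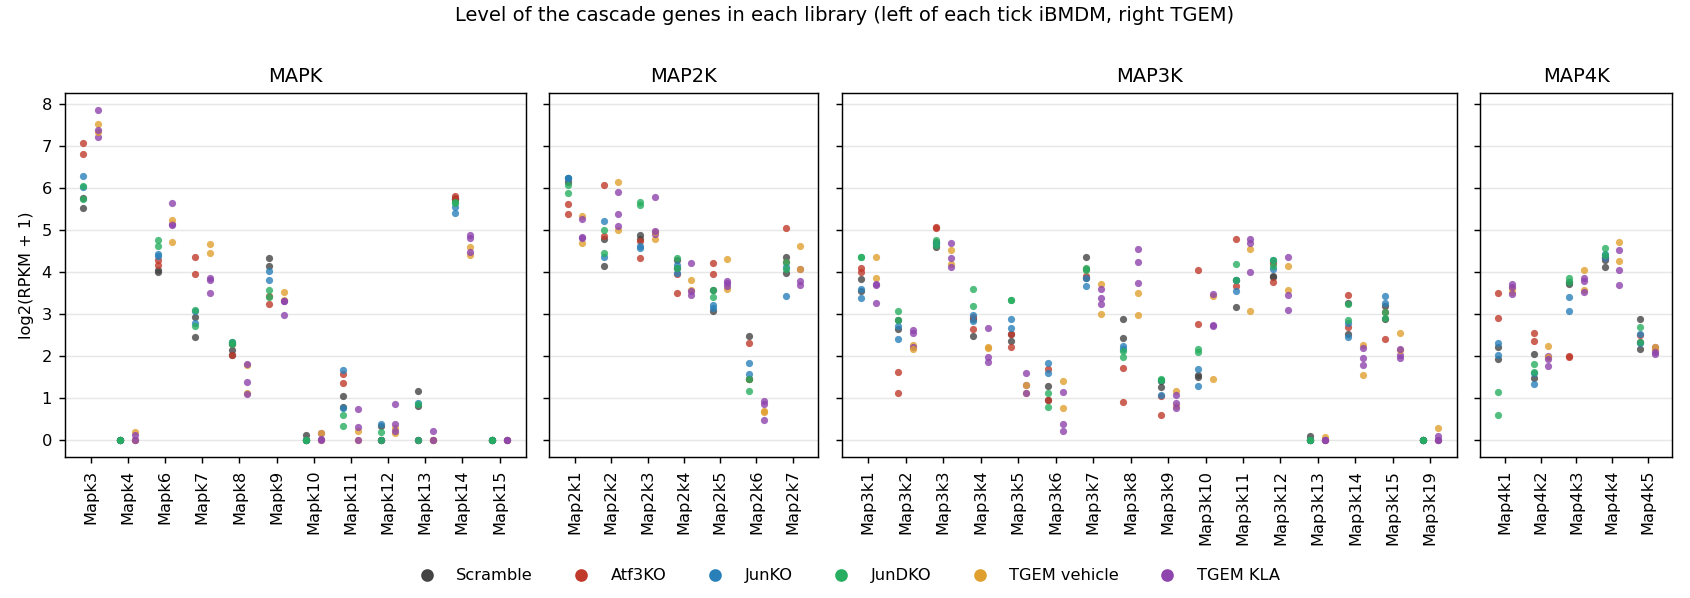
Expression of the cascade genes by tier, as log2(RPKM + 1) for each library, with a colour for each knockout or treatment, iBMDM points to the left and TGEM points to the right of each gene. Mapk3 is the highest MAPK in the TGEM libraries, and 6 members stay under 1 RPKM in all 13 libraries.

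In the ERK arm Mapk3 separated the 2 cell types. Mapk3 measured 53.3 and 45.1 RPKM in Scramble, 111 and 134 in Atf3KO, 76.6 and 63.9 in JunKO, with JunDKO at 65.4 and 52.3. In TGEMs it was 182 (C57 Veh), 148 (C57 KLA), 159 (Balb Veh) and 232 and 165 (Balb KLA). Atf3KO and TGEM libraries thus lay above all other iBMDM libraries.

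The ratio of the upstream MEK pair, Map2k1 to Map2k2, differed between the cell types in most libraries. Map2k1 measured 69.8 and 73.8 RPKM in Scramble, 40.3 and 48.4 in Atf3KO, 73.9 and 74.7 in JunKO, with JunDKO at 57.5 and 66.0, against 24.8 to 39.3 in TGEMs. Map2k2 measured 26.8 and 16.6 RPKM in Scramble, 28.0 and 66.6 in Atf3KO, 36.3 and 19.5 in JunKO, with JunDKO at 31.1 and 20.8, against 30.9 to 70.1 in TGEMs. Map2k1 exceeded Map2k2 in 7 of 8 iBMDM libraries, the exception being Atf3KO replicate 2 with a ratio of 0.727, and was lower than Map2k2 in 5 of 5 TGEM libraries, with ratios of 0.561 to 0.828. The replicates of Map2k2 differed widely, and of this pair Map2k1 alone passed in TGEM Veh against Scramble, described below. Map3k8, the MAP3K that drives MEK after TLR4 ligation, measured 6.43 and 4.45 RPKM in Scramble, 2.28 and 0.885 in Atf3KO, 3.52 and 3.74 in JunKO, with JunDKO at 3.35 and 2.95. It was 10.4 (C57 Veh), 22.4 (C57 KLA), 6.84 (Balb Veh) and 12.5 and 17.8 (Balb KLA) in TGEMs, which put every TGEM library above every iBMDM library.

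Among the JNK genes Mapk8, Mapk9 and Mapk10, Mapk9 (JNK2) had the highest level. It measured 16.7 and 19.3 RPKM in Scramble, 8.39 and 9.84 in Atf3KO, 13.1 and 15.4 in JunKO, 9.66 and 10.9 in JunDKO and 6.88 to 10.4 in TGEMs. Mapk8 (JNK1) stayed at 3.05 to 4.07 RPKM in iBMDMs and 1.15 to 2.53 in TGEMs. The MAP2K proteins that feed JNK were present in both cell types, Map2k4 (MKK4) at 10.3 to 19.1 RPKM in iBMDMs and 9.96 to 17.5 in TGEMs, and Map2k7 (MKK7) at 9.83 to 32.2 and 11.9 to 23.5. Neither MKK gene separated the cell types.

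Among the p38 kinases themselves, Mapk11 to Mapk14, Mapk14 carried nearly all of the transcript. It measured 41.3 to 54.9 RPKM over the 8 iBMDM libraries and 20.3 to 28.3 over the 5 TGEM libraries, without overlap. Mapk11 (p38 beta) reached at most 2.17 RPKM, Mapk13 (p38 delta) 1.28 and Mapk12 0.819. Among p38 activators, Map2k3 (MKK3) measured 28.4 and 26.6 RPKM in Scramble, 19.0 and 25.9 in Atf3KO, 22.9 and 23.6 in JunKO, with JunDKO at 47.6 and 49.8, and 26.6 to 54.5 in TGEMs. Map2k6 (MKK6) was low, at 1.26 to 4.56 RPKM in iBMDMs and 0.396 to 0.90 in TGEMs. The ratio of Mapk14 to Mapk3 was 1.01 and 1.15 in Scramble, 0.470 and 0.411 in Atf3KO, 0.540 and 0.719 in JunKO, with JunDKO at 0.756 and 0.929, and 0.122 to 0.183 in TGEMs. The TGEM libraries thus held far less p38 alpha transcript relative to ERK1 transcript than any iBMDM library.

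**Figure D2:**
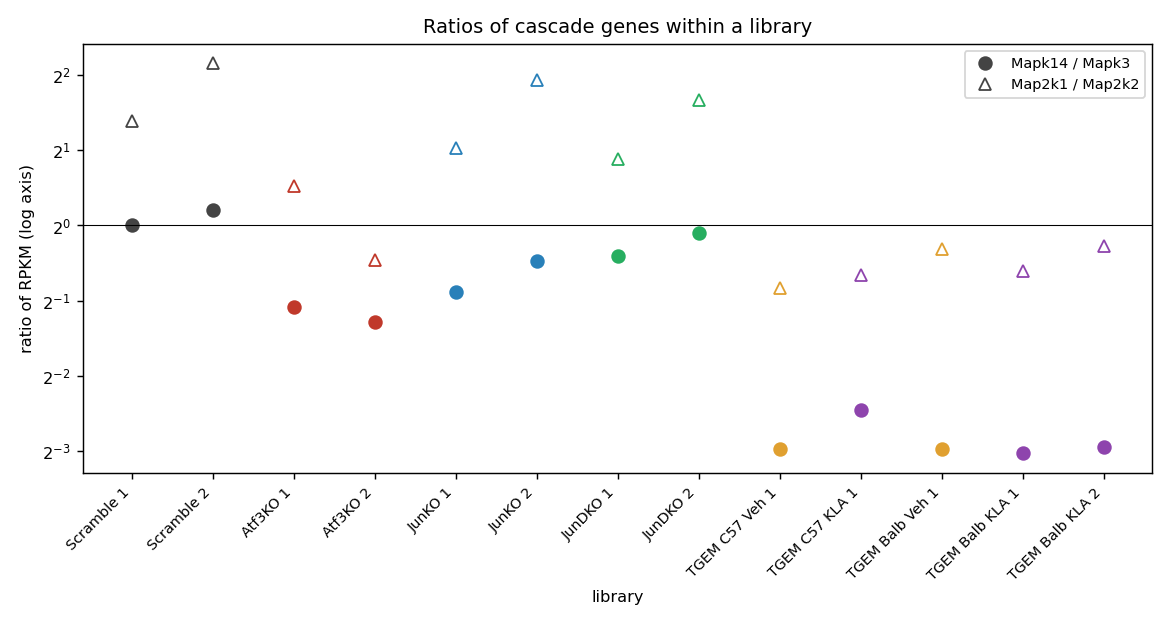
Ratios of Mapk14 to Mapk3 (filled circles) and of Map2k1 to Map2k2 (open triangles) in each library, as ratios of RPKM on a log axis with colours by group and a line at 1. The Mapk14 to Mapk3 ratio is at most 0.183 in the TGEM libraries and at least 0.411 in the iBMDM libraries.

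The MAP3K and MAP4K tiers held many genes at low to middle levels. Among MAP3K genes with roles in several arms, Map3k1 (MEKK1) ran from 8.60 to 19.6 RPKM over the 13 libraries, Map3k7 (TAK1) from 7.0 to 19.6, Map3k5 (ASK1) from 1.19 to 9.13 and Map3k14 (NIK, of the noncanonical NF-kB route) from 1.95 to 10.0. Map3k3 led the tier in Scramble with a mean of 24.2 RPKM. Of the MAP4K genes, Map4k4 ran from 11.8 to 25.5 RPKM. Map4k1 (HPK1, a kinase of blood cells) measured 3.70 and 2.85 RPKM in Scramble, 6.57 and 10.3 in Atf3KO, 3.08 and 3.94 in JunKO, with JunDKO at 1.21 and 0.509, and 10.1 to 12.2 in TGEMs. In its case the Atf3KO libraries lay above and the JunDKO libraries, with 5 and 25 reads, below the other iBMDM libraries. Exons of 6 members overlap another gene model, 5 of them on the opposite strand, among them Map2k1, Map3k12 and Map4k5. Whether strand was used in counting is not given in the sources used here.

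The first comparison asked which kinases differ between the Atf3KO and Scramble libraries. The libraries labelled Atf3KO differed from Scramble at 10 of the 34 members that had a mean of at least 1 RPKM in iBMDMs (limma-trend on log2(RPKM + 1), adjusted p under 0.05). That is 29.4%, below the 41.2% of all 10691 tested genes that passed. Map3k10, Mapk7, Mapk3, Map4k1 and Map2k5 were higher, and Map4k3, Map3k2, Map3k8, Mapk9 and Map2k1 were lower, 5 in each direction against 20.7% of all genes higher and 20.6% lower. The median log2 fold change of the tested members was 0.11, and 0.05 over all tested genes. With the study's thresholds, read here as also asking for a 2-fold change and 16 RPKM in either group, Mapk3 and Mapk7 remained, 2 of 34 against 12.5% of all genes. The study does not say in which group 16 RPKM is needed, and of these groups Mapk7 reached it in Atf3KO alone. A passage of its methods also gives the fold threshold on the log2 scale.

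Of the genes that rose, Mapk3 (chromosome 7, 126759626 to 126765816, plus strand) had a log2 fold change of 1.30 ± 0.20 (SE, n = 2 per group; adjusted p = 0.00254). Mapk7 (chromosome 11, 61488812 to 61494266, minus strand), which encodes ERK5, went from 6.61 and 4.51 RPKM in Scramble to 14.4 and 19.5, a log2 fold change of 1.46 ± 0.27 (adjusted p = 0.00473). Its own activator Map2k5 (MEK5) went from 7.42 and 11.0 to 14.6 and 17.5 RPKM, a log2 fold change of 0.76 ± 0.23 (adjusted p = 0.0308). Map2k5 missed the threshold in 10 of 20 alternatives, which include equal medians (0.64, adjusted p = 0.0599), quantile normalization (0.61, adjusted p = 0.073) and the fit of the 2 groups alone. Map3k10 (MLK2, a JNK-arm MAP3K) went from 1.84 and 1.92 to 5.85 and 15.6 RPKM, a log2 fold change of 1.89 ± 0.40 (adjusted p = 0.00812). Map4k1 changed by 1.12 ± 0.31 (adjusted p = 0.0228). The 2 Atf3KO libraries of Map3k10 differed widely from each other, yet neither overlapped the controls.

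Of the genes that fell, Map4k3 (GLK, chromosome 17, 80580513 to 80728025, minus strand) went from 12.2 and 12.5 RPKM in Scramble to 3.04 and 2.99 in Atf3KO, with JunKO at 7.40 and 9.63 and JunDKO at 13.6 and 12.6. Its log2 fold change was -1.73 ± 0.20 (adjusted p = 9.08e-04), and both Atf3KO libraries lay below all other iBMDM libraries. Map3k2 (MEKK2, which acts on MEK5 and on JNK) went from 5.24 and 6.29 to 2.09 and 1.19 RPKM, a log2 fold change of -1.37 ± 0.26 (adjusted p = 0.00564). Map3k8 changed by -1.36 ± 0.32 (adjusted p = 0.0122), Mapk9 by -0.91 ± 0.20 (adjusted p = 0.00901) and Map2k1 by -0.69 ± 0.17 (adjusted p = 0.0151). The p38 arm gave 0 of 4 tested genes, Mapk14 with a log2 fold change of 0.02 (95% interval -0.35 to 0.38).

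Fold changes between Atf3KO and Scramble tracked the GC content of transcripts across all genes (Spearman's rho = 0.50 over 10617 models, a description). The 5 members that rose had a GC content of 53.9% to 64.8% and the 5 that fell 39.7% to 51.0%. With the trend of each library on GC taken out, Map3k10 fell from 1.89 to 0.59 (adjusted p = 0.0698), Map4k1 to 0.60 (adjusted p = 0.101) and Map2k5 to 0.44 (adjusted p = 0.149), while Mapk3 stood at 0.71, Mapk7 at 0.77, Map4k3 at -1.28 and Map3k2 at -0.56, all still past the threshold. Over all alternatives tried, the adjusted p of Map4k3, Mapk3, Mapk7 and Map3k2 remained under 0.05. The others each lost the call when a library was left out. Map3k8 lost it without Atf3KO replicate 2 (adjusted p = 0.0553) or Scramble replicate 1 (0.0703), Map4k1 without Atf3KO replicate 2 (0.127), Scramble 1 (0.0538) or Scramble 2 (0.123), Map2k1 without Scramble 1 (0.0505) or 2 (0.0835), and Mapk9 (0.0661) and Map3k10 (0.0507) without Scramble 2. Map2k5 lost it without any 1 of 6 libraries, namely Atf3KO 2 (0.124), Scramble 1 (0.165), and either JunDKO or either JunKO replicate (0.0518 to 0.0578). Atf3KO replicate 2 carries a later date in its label than the other iBMDM libraries. Calls fell in number without it, among the members and over all genes alike.

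**Figure D3:**
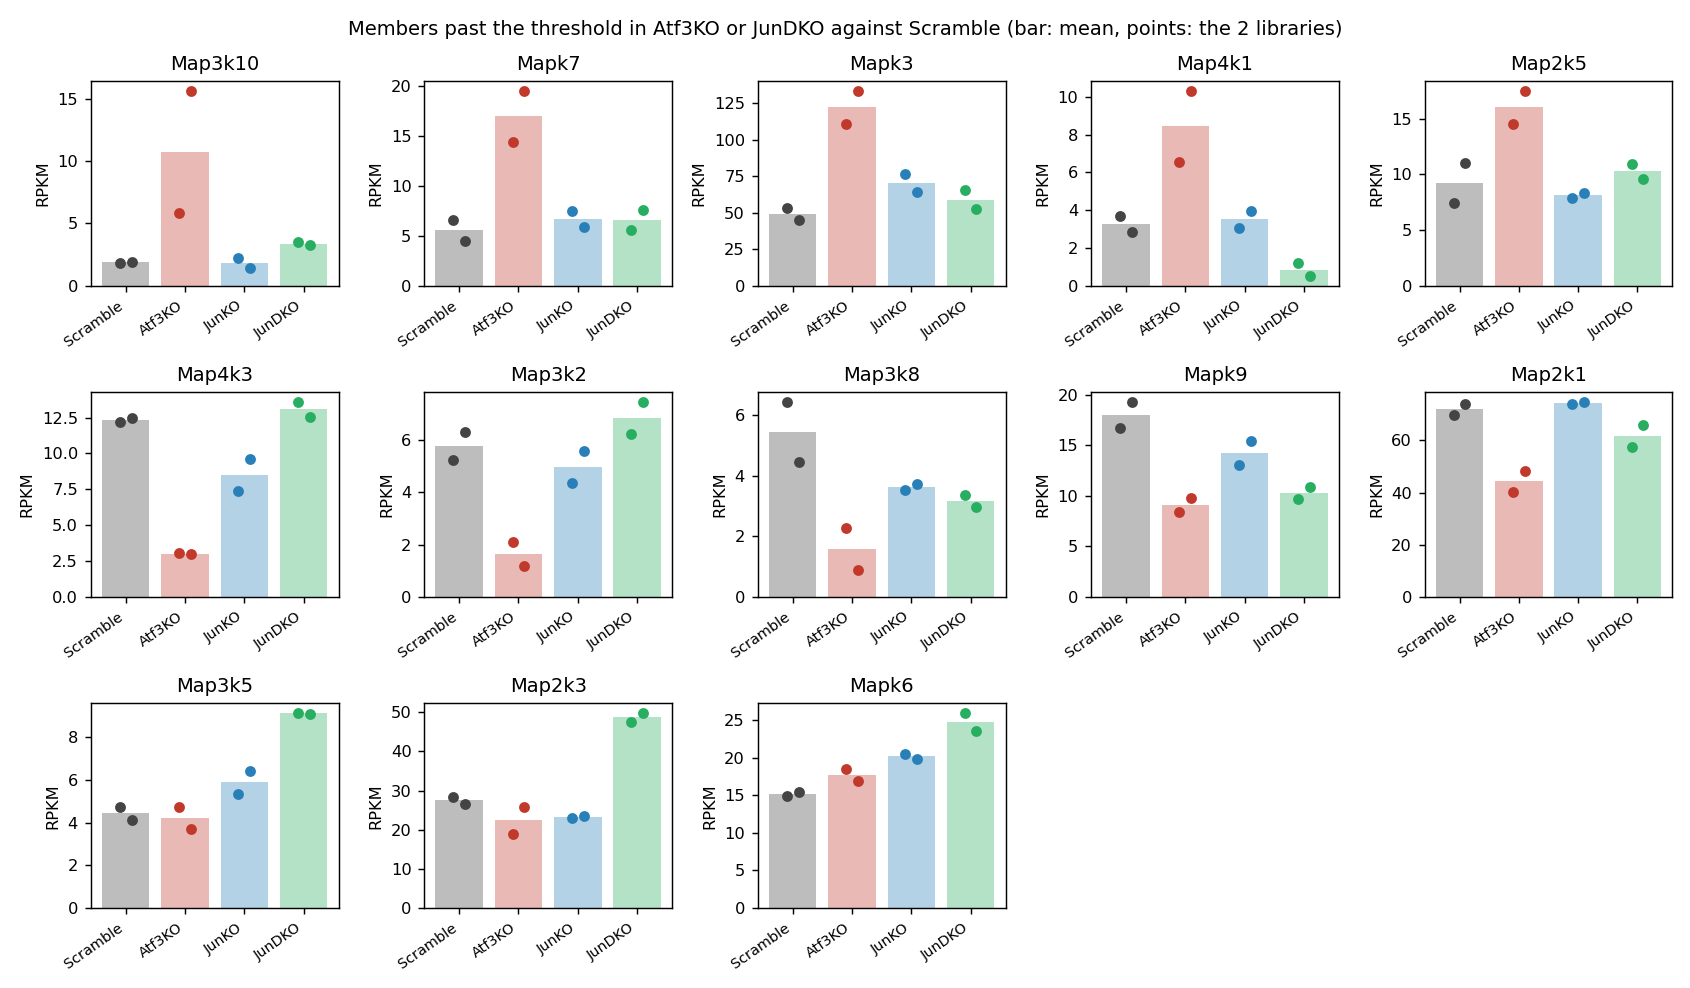
RPKM of 13 cascade genes in the 4 iBMDM groups, where bars are group means from 0 and points are the 2 libraries of each group. Both Atf3KO points lie above all other points for Mapk3, Mapk7, Map2k5, Map3k10 and Map4k1, and below them for Map4k3, Map3k8, Map3k2 and Map2k1.

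Beyond the numbered kinases, 7 lists of cascade partners were read the same way in the Atf3KO contrast, where 20.7% of all genes were higher and 20.6% lower. Feedback inhibitors, the phosphatases and Sprouty-type proteins that dampen MAPK signalling, had 2 genes higher and 7 lower of 15 tested. Dusp1 (MKP-1) was listed at 0 in both Atf3KO libraries against 8.30 and 2.41 RPKM in Scramble, Spred1 fell by 1.83 on the log2 scale (adjusted p = 0.00249) and Dusp7 rose by 1.34 (adjusted p = 0.00234). The RAS and RAF list had 3 higher and 4 lower of 15, with Araf at 1.18 (26.3 and 26.6 against 13.3 and 9.23 RPKM; adjusted p = 0.0566 without Scramble replicate 2) and Sos2 at -0.99 (adjusted p up to 0.0875, lost without Scramble 2 or Atf3KO 2). Scaffolds had 3 higher and 3 lower of 11, led by Pebp1 (RKIP, an inhibitor of RAF) at 1.93, and STE20-like kinases had 0 higher and 3 lower of 13, led by Stk3 (MST2) at -3.66, with 0.078 and 0.048 RPKM against 10.9 and 14.1. Activators of TAK1, Tpl2 and ASK1 had 2 higher and 3 lower of 12, with Tnip2, which binds Tpl2, at 1.50 and Ube2n, the ubiquitin-conjugating enzyme upstream of TAK1, listed at 0 in both Atf3KO libraries against a mean of 4.85 RPKM in Scramble. Both zeros count among the lower genes. Ube2n serves most cells, and 467 of 9923 models with at least 1 RPKM in both Scramble libraries were listed at 0 in both Atf3KO libraries, against 8 in JunKO and 34 in JunDKO. Whether these zeros come from the cells or from the making of the libraries or files was not tested. Kinases downstream of MAPKs had 3 higher and 1 lower of 10, and nuclear targets 1 higher and 2 lower of 14, led by Ets2 at -1.25. Leaving out Scramble replicate 2 brought the share of all genes that passed from 41.2% to 19.5%. Without it 0 genes of RAS and RAF passed (4 to 6 without any other library), 0 downstream kinases, 1 nuclear target, 2 activators, 2 STE20-like kinases, 3 scaffolds and 7 feedback inhibitors. Without Atf3KO replicate 2 the downstream kinases also gave 0 and the STE20-like kinases 2, without Atf3KO replicate 1 the STE20-like kinases gave 6 and the nuclear targets 5, and without Scramble replicate 1 the nuclear targets gave 1. After the GC correction (21.8% of all genes higher and 19.2% lower) the splits became 3 higher and 9 lower for feedback inhibitors, 4 and 2 for RAS and RAF, 3 and 5 for scaffolds, 1 and 2 for STE20-like kinases, 2 and 4 for activators, 1 and 2 for downstream kinases and 0 and 2 for nuclear targets.

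The second comparison asked the same of the JunKO libraries. Of the 34 members, 0 passed in JunKO against Scramble, with 2 at an unadjusted p under 0.05, and 0 passed in each of 19 alternatives. Over all genes 30 of 10691 passed (0.281%). The largest changes with an unadjusted p under 0.05 were Mapk3 at 0.51 (95% interval 0.04 to 0.97; limma-trend adjusted p = 0.57) and Map4k3 at -0.50 (95% interval -0.96 to -0.03; adjusted p = 0.594). These intervals still include changes close to 2-fold, so the missed threshold does not show that the members were unchanged. All 7 partner lists also gave 0 genes past the threshold.

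The third comparison concerned Jund. JunDKO differed from Scramble at 5 of 34 members (14.7%) against 11.7% of all tested genes. Map3k5, Map2k3 and Mapk6 were higher and Map4k1 and Mapk9 lower, against 6.93% and 4.82% of all genes in each direction. Map2k3 changed by 0.80 ± 0.19 (SE, n = 2 per group; adjusted p = 0.0329), Map3k5, which went from 4.74 and 4.14 to 9.13 and 9.10 RPKM, by 0.90 ± 0.22 (adjusted p = 0.0354), and Mapk6, from 14.9 and 15.5 to 25.9 and 23.6 RPKM, by 0.67 ± 0.17 (adjusted p = 0.0415). The upstream kinase ASK1, its substrate MKK3 and ERK3 thus stood above both control libraries. Map4k1 changed by -1.22 ± 0.31 (adjusted p = 0.0423) and Mapk9 by -0.75 ± 0.20 (adjusted p = 0.0456).

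These 5 calls were close to the threshold. Under the study's thresholds 0 remained. The median log2 fold change of all tested genes was 0.24 in this contrast, and with library medians set equal it was -0.04. Under equal medians, as under quantile normalization, 0 members were higher and Map4k1 and Mapk9 were lower, while the shares of all genes went to 3.21% higher and 7.22% lower with equal medians and 4.40% and 6.24% with quantile normalization. The 5 calls all ended when either Scramble, either JunDKO or either JunKO library was left out, the signs staying the same. Calls over all genes fell in each of those fits as well.

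Several partner genes also passed the test in JunDKO. Rasgrp3, an exchange factor that activates RAS, went from 1.67 and 2.89 RPKM in Scramble to 31.7 and 31.4, a log2 fold change of 3.34 ± 0.28 (adjusted p = 3.04e-04). Mapkapk3, a p38 substrate kinase, went from 12.5 and 8.34 to 45.9 and 44.2 RPKM (2.04 ± 0.28), and Mef2c, a transcription factor phosphorylated by p38 and ERK5, changed by 2.04 ± 0.24. The ERK phosphatases Dusp6, from 69.8 and 57.8 to 23.5 and 24.5 RPKM (-1.37), and Dusp4, from 21.6 and 26.8 to 5.58 and 6.09 RPKM (-1.88), fell, as did Ets2 (-1.57). These 6 genes passed in all 19 alternatives. By list, RAS and RAF had 2 higher and 0 lower of 15, feedback inhibitors 2 and 2 of 15, nuclear targets 3 and 1 of 14, downstream kinases 1 and 0 of 10, STE20-like kinases 1 and 0 of 13, activators 1 and 0 of 12 and scaffolds 0 and 0 of 11, beside 6.93% and 4.82% of all genes. Leaving out either Scramble or either JunDKO library left fewer calls in each list that had any, except the downstream kinases. Leaving out either JunKO library also lowered the nuclear targets and the activators. Fewer of all genes passed in each of these fits as well. With equal medians the splits, in the order above, became 1 and 1, 0 and 3, 1 and 1, 1 and 1, 0 and 0, 0 and 2, and 0 and 1, beside 3.21% and 7.22% of all genes. After the GC correction, where 15.0% of all genes were higher and 7.23% lower, they were 4 and 1, 2 and 3, 6 and 1, 3 and 1, 1 and 1, 3 and 1, and 2 and 1.

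The knockouts share the Scramble libraries, so they were also set against each other. Atf3KO differed from JunKO at 10 of 34 members (6 higher, 4 lower) against 35.5% of all genes, JunDKO from JunKO at 3 (2 higher, 1 lower) against 8.14%, and Atf3KO from JunDKO at 8 (4 higher, 4 lower) against 40.7%. The widest gap was at Map4k1, which stood 2.34 ± 0.31 higher on the log2 scale in Atf3KO than in JunDKO (adjusted p = 0.00112). Its reads were few in JunDKO, 5 and 25, against 77 and 199 in Atf3KO. Map2k3 was 1.10 lower in Atf3KO than in JunDKO (adjusted p = 0.00336) and 1.04 higher in JunDKO than in JunKO (adjusted p = 0.0155, but 0.0876 to 0.13 without any 1 library of those groups). The MKK3 gene was therefore highest in JunDKO, whose 2 libraries lay above all other iBMDM libraries. Map4k3 was 1.24 lower in Atf3KO than in JunKO (adjusted p = 0.00407) and 1.81 lower than in JunDKO (adjusted p = 5.77e-04). For Atf3KO against JunDKO the split was 8 higher and 4 lower with equal medians, 8 and 5 with quantile normalization and 4 and 8 after the GC correction, and for JunDKO against JunKO it was 1 and 1 with equal medians. For Atf3KO against JunDKO 14.9% of all genes were higher and 25.9% lower, 19.8% and 21.2% with equal medians, 18.0% and 19.9% with quantile normalization and 15.9% and 27.6% after the GC correction. For JunDKO against JunKO 4.33% of all genes were higher and 3.81% lower, and 2.13% and 5.76% with equal medians. The calls of Map4k3 in both pairs, and of Map4k1, Map2k3 and Map3k2 in Atf3KO against JunDKO, were kept in all alternatives. Fold changes in both Atf3KO pairs followed GC content (rho = 0.50 with JunKO and 0.45 with JunDKO, over 10617 models), and the GC correction ended 7 of the 10 calls with JunKO, among them Mapk3 (0.79 to 0.26, adjusted p = 0.122) and Map3k2 (-1.19 to -0.43, adjusted p = 0.0946), and 1 of the 8 with JunDKO, Map3k10 (1.28 to 0.10, adjusted p = 0.751).

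**Figure D4:**
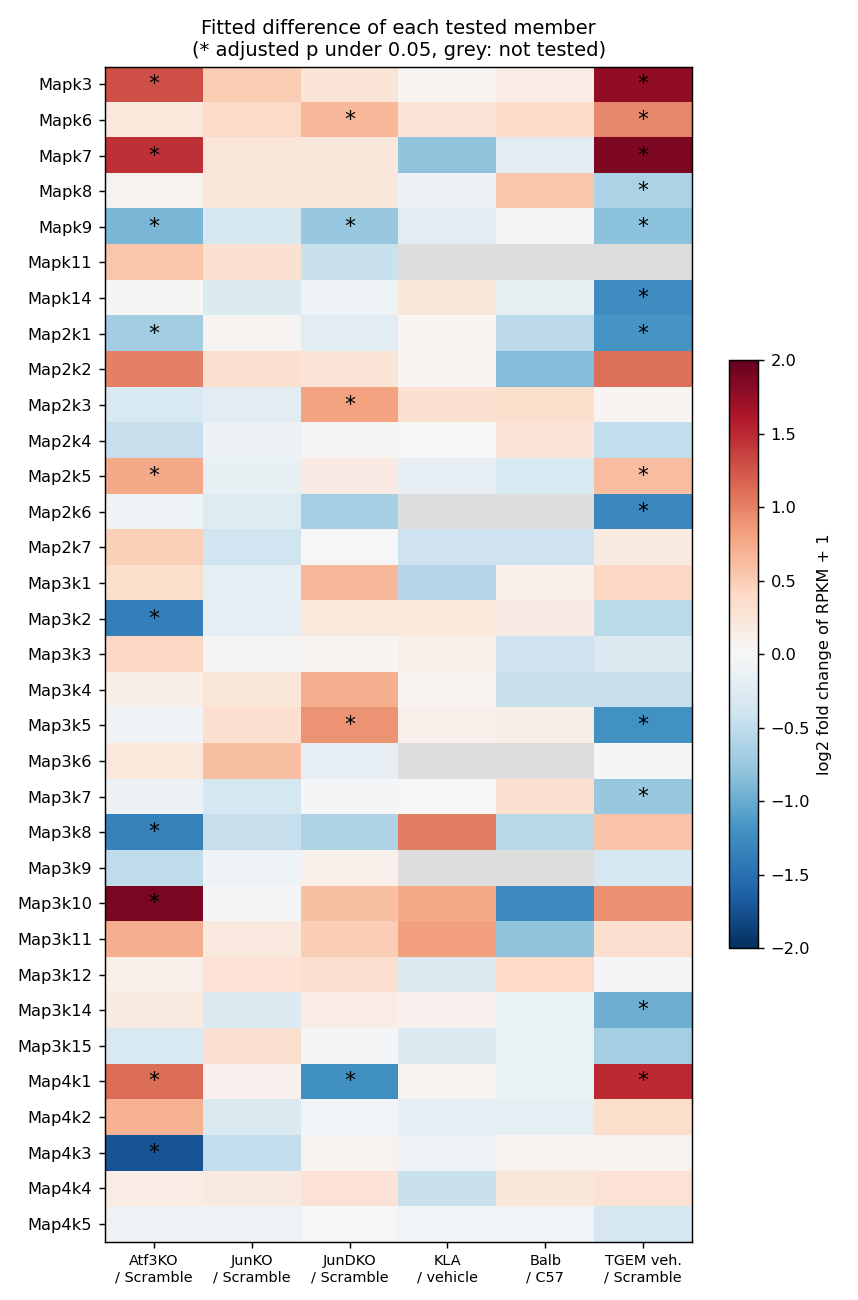
Log2 fold changes of 33 cascade genes in 6 comparisons as a heat map, with a star for an adjusted p under 0.05 and grey for genes not tested. Stars fall on 10 genes in the Atf3KO column, 0 in the JunKO column, 5 in the JunDKO column and 0 in the KLA column.

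TLR4 activation was compared within TGEMs, with strain in the fit. After 1 h of KLA, 0 of 30 tested members passed, with 4 at an unadjusted p under 0.05, and 0 passed in each of 16 alternatives. Over all genes 1.53% passed, 1.29% higher and 0.232% lower. Map3k8 had the largest change, from 10.4 and 6.84 RPKM with Veh to 22.4, 12.5 and 17.8 with KLA, a log2 fold change of 1.03 ± 0.26 (SE, 3 KLA against 2 Veh libraries; 95% interval 0.42 to 1.64; limma-trend adjusted p = 0.145, range 0.0704 to 0.658 over alternatives). All 3 KLA libraries stood above both Veh libraries, but the change did not survive adjustment over all genes. Its values within a labelled date were 1.04 in C57Bl/6EiJ and 0.78 in Balb/cJ.

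The others included Mapk7 at -0.80 (limma-trend adjusted p = 0.218, range 0.0819 to 0.727) and Map3k10 at 0.75 (0.329, range 0.131 to 0.996). The Map3k10 value leaned on the Balb Veh library, at 1.75 RPKM against 9.71 in C57 Veh. It was 0.06 without that library and 1.27 without either C57 library. For several central kinases the intervals stayed within a 2-fold change in either direction. The 95% interval was -0.66 to 0.74 for Mapk3, -0.36 to 0.85 for Mapk14, -0.53 to 0.62 for Map2k1 and -0.65 to 0.64 for Map3k7, on the log2(RPKM + 1) scale.

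Some brakes and nuclear targets of the cascade rose in the same libraries. Feedback inhibitors rose at 5 of 18 tested genes and fell at 0, against 1.29% and 0.232% of all genes. Dusp1, a phosphatase of p38 and JNK, went from 55.3 and 16.1 RPKM with Veh to 1183, 759 and 888 with KLA, a log2 fold change of 5.08 (adjusted p = 6.22e-04). Dusp2 (4.74), Dusp5 (3.92), Dusp4 (2.69) and Dusp8 (2.18) rose as well. Of 14 nuclear targets 3 rose, Egr1 from 4.69 and 4.73 to 451, 196 and 275 RPKM (5.76, adjusted p = 3.49e-04), Fos by 3.08 (adjusted p = 0.0234) and Myc by 2.48 (adjusted p = 0.00407). The other 5 lists gave 0 genes. Egr1 passed in all 16 alternatives. Without the Balb Veh library the feedback inhibitors lost their calls and fewer nuclear targets passed, while calls over all genes fell steeply as well. Without the C57 Veh or the C57 KLA library fewer genes of both lists passed, while calls over all genes fell only a little.

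**Figure D5:**
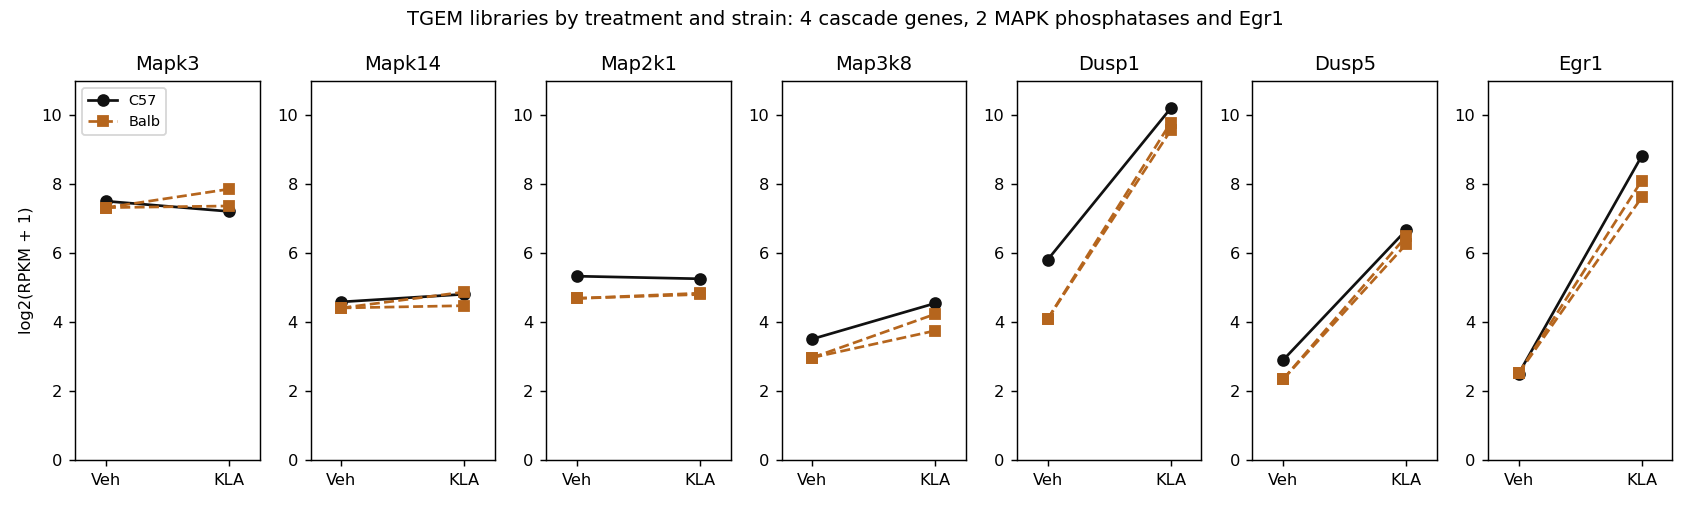
Level as log2(RPKM + 1) with Veh and after 1 h of KLA for 4 kinases of the cascade, 2 Dusp phosphatases and Egr1, with strains in separate colours. Dusp1, Dusp5 and Egr1 rise in both strains, Map3k8 is higher in all 3 KLA libraries than with Veh of the same strain, and Mapk3, Mapk14 and Map2k1 move little.

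Between Balb/cJ and C57Bl/6EiJ TGEMs, 0 of 30 members passed, with 2 at an unadjusted p under 0.05, against 2.31% of all genes. These were Map3k10 at -1.27 (limma-trend adjusted p = 0.0898) and Map2k2 at -0.87 (adjusted p = 0.138), both lower in Balb/cJ. Without Balb Veh or C57 Veh Map3k10 stood at -0.75, and without C57 KLA at -1.96. Fold changes between strains followed GC content (rho = -0.45 over 10286 models), and after the GC correction Map3k10 stood at -0.56 (adjusted p = 0.365) and Map2k2 at -0.41 (adjusted p = 0.471). In a fit of all 13 libraries Map3k10 alone passed (-1.35, adjusted p = 0.0447). Strain, the date in the labels and the genome used for alignment cannot be told apart.

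Last, TGEMs given Veh were set against Scramble iBMDMs, which compares primary with immortalized cells across culture, strain and origin at once. They differed at 13 of 33 tested members (39.4%), 5 higher and 8 lower, against 49.9% of all genes, 16.2% higher and 33.7% lower. Under the study's thresholds 4 remained, Mapk3, Mapk7, Map2k1 and Mapk14, against 19.9% of all genes. Mapk7 was higher by 1.87 ± 0.26 (adjusted p = 5.36e-04), at 24.3 and 21.1 RPKM, Mapk3 by 1.77 ± 0.23 (adjusted p = 3.58e-04), Map4k1 by 1.49 ± 0.28, Mapk6 by 0.96 and Map2k5 by 0.62. ERK1, ERK5 and MEK5 transcripts were thus higher in the primary cells. Mapk14 was lower (-1.25 ± 0.18, adjusted p = 6.68e-04), as were Map2k1 (-1.17 ± 0.17, adjusted p = 6.13e-04), Map3k5 (-1.21), Map2k6 (-1.28), Map3k14 (-0.98), Mapk9 (-0.82), Map3k7 (-0.75) and Mapk8 (-0.63).

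The split depended on scaling. The median of all genes was -0.33 in this contrast, and with equal medians it was -0.02 and 9 members were higher and 3 lower, or 10 and 4 with quantile normalization. All genes moved the same way, to 23.6% higher and 23.7% lower with equal medians and 23.5% and 25.1% with quantile normalization. Fold changes also followed GC content (rho = 0.33 over 10848 models), and the GC correction ended the calls of Mapk8 (-0.63 to -0.11, adjusted p = 0.708), Map3k7 (to -0.43, adjusted p = 0.101), Mapk9 (to -0.52, adjusted p = 0.0512) and Map2k5 (0.62 to 0.42, adjusted p = 0.132). The calls of Mapk3, Mapk7, Map4k1, Map3k5 and Mapk14 were kept in all alternatives. Leaving out 1 library ended the calls of Map3k14 (adjusted p = 0.247 without Balb Veh, 0.224 without Scramble 1), Map3k7 (0.162 without Scramble 2, 0.287 without C57 Veh), Mapk8 (0.0848 and 0.155 without Scramble 1 or 2, 0.405 without C57 Veh), Map2k5 (0.244 without Scramble 1, 0.453 without C57 Veh), Map2k6 (0.0589 without Balb Veh, 0.164 without Scramble 2, 0.0639 without C57 Veh) and Mapk9 (0.0654 without Scramble 2). The B cell, mast cell and mesothelial marker sums given above moved with this contrast, and their part in it was not tested.

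The partner lists also differed between the cell types. Braf did not pass this test, at 3.15 to 5.43 RPKM in iBMDMs and 4.24 to 5.98 in TGEMs. Rras2 was listed at 0 in both Scramble libraries and at 11.6 and 12.4 RPKM in TGEM Veh. By list, beside 16.2% of all genes higher and 33.7% lower, RAS and RAF had 2 higher and 3 lower of 16, feedback inhibitors 5 and 6 of 17, nuclear targets 5 and 5 of 14, downstream kinases 4 and 2 of 10, STE20-like kinases 2 and 3 of 13, scaffolds 2 and 2 of 12 and activators 2 and 2 of 12. Without Balb Veh fewer activators and more downstream kinases passed. Downstream kinases were fewer without C57 Veh, and nuclear targets fewer without Scramble replicate 2. Fewer of all genes passed in each of these fits. Ets2 (-3.02), Dusp6 (-3.72), whose TGEM Veh values were 3.39 and 4.43 RPKM, and Jun (2.16) were among the genes that passed in the main fit. With equal medians the RAS and RAF split was 3 and 2, feedback inhibitors 7 and 6, scaffolds 5 and 2, STE20-like kinases 3 and 2 and downstream kinases 5 and 1.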

How the data were processed

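The authors aligned reads with STAR to mm10, or Balb/cJ reads to a genome of that strain, and deposited exonic RPKM from HOMER per gene model (versions not given in the sources used here). Values were used as RPKM, with no value column left out. GRO-seq samples (4) were not analysed here, and the values of some members and partner genes are not reported here, although counts include them. RPKM times length moves in steps of 1 read, which gave depth and reads, and all values up to 50 reads came out within 0.05 of a whole number.

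Gene models averaging 1 RPKM or more were fitted as log2(RPKM + 1) with limma-trend (R 4.3.3, limma 3.58.1), with 4 iBMDM groups in 1 fit, treatment and strain in TGEMs, and 8 groups over all 13 libraries for TGEM Veh against Scramble. Fold changes on this scale understate those of low genes. Tests were two-sided, with Benjamini-Hochberg adjustment over all tested models. The study's methods speak of replicate experiments, but the sources used here do not state separate cultures or animals for these libraries, so p-values measure the spread between these libraries, which may be technical. The step was tested on simulated data. Alternatives were other pseudocounts (0.25 and 5), filters (none and 5 RPKM), equal medians, quantile normalization, a GC spline with 5 degrees of freedom, limma-voom on recovered reads, other sets of libraries, and each library left out in turn, where the spread of a lone library is taken from the other groups.

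Members, core genes, partner lists and tests were chosen with earlier results of these data known. Values per library are given for core members and for up to 8 members with the largest change past the threshold, and of each partner list up to 3 genes by the same rule. Dusp4, Dusp8, Braf and the genes of the KLA plot were named after their values were seen. Promoter sequences are RefSeq's, read from GRCm38.p6. Tables and figures were made with Python 3.11.15 (matplotlib 3.10.9, pandas 2.3.3, numpy 2.4.6, scipy 1.17.1). The authors' own test was edgeR, whose model was not fitted for these values.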

Additional observations from a re-analysis of the deposited data

Results flagged for a closer look

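Differences between knockouts were taken from the fit's own contrast of each pair (limma-trend, adjusted p under 0.05, 2 libraries per group), and 21 such differences at 13 members were found. Of the tested members 29.4% passed between Atf3KO and JunKO, against 35.5% of all genes. The shares were 8.8% against 8.14% between JunDKO and JunKO, and 23.5% against 40.7% between Atf3KO and JunDKO. Values below for each gene are log2 fold changes. In Atf3KO relative to JunKO, Map3k10 stood at 1.92, Mapk7 at 1.22, Map4k1 at 1.04, Map4k2 at 0.99, Map2k5 at 0.90 and Mapk3 at 0.79. In the same pair Map4k3 stood at -1.24, Map3k2 at -1.19, Map2k1 at -0.74 and Mapk9 at -0.59. The kinases at the top and the bottom of the cascade are both among these 10. In JunDKO relative to JunKO, Map2k3 stood at 1.04, Map3k1 at 0.86 and Map4k1 at -1.30. In Atf3KO relative to JunDKO, Map4k1 stood at 2.34, Map3k10 at 1.28, Mapk7 at 1.24 and Mapk3 at 1.05, and Map4k3 at -1.81, Map3k2 at -1.58, Map2k3 at -1.10 and Map3k5 at -0.96. Of the 21, 5 passed whichever library was left out, namely Map4k3 in both Atf3KO pairs and Map4k1, Map2k3 and Map3k2 in Atf3KO relative to JunDKO. The GC correction ended Map3k10 in Atf3KO relative to JunDKO (0.10, adjusted p = 0.751) and, relative to JunKO, Mapk3 (0.26), Map2k5 (0.59), Mapk7 (0.60), Map4k1 (0.57), Map4k2 (0.60), Mapk9 (-0.26) and Map3k2 (-0.43), with adjusted p from 0.0599 to 0.297. The 16 others lost their call without at least 1 library, with adjusted p from 0.0503 to 0.24. JunKO replicate 2 alone ended 9 of the 10 calls between Atf3KO and JunKO, and any 1 library of JunDKO or JunKO ended all 3 between those groups.

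After KLA, 10 of the tested members moved one way in C57Bl/6EiJ and the other way in both Balb/cJ comparisons. That is 33.3% of 30, beside 30.2% of all 10357 tested genes, no member passed the test of KLA, and several of the values lie near 0. The difference between strains was not tested, each C57 value rests on 1 library per treatment, and both Balb values share 1 Veh library. Lower in C57 and higher in Balb were Mapk3 (-0.30 in C57, 0.54 and 0.05 in Balb), Map2k1 (-0.08, 0.11 and 0.15), Map2k2 (-0.25, 0.39 and 0.11), Map2k5 (-0.57, 0.20 and 0.07), Map3k2 (-0.06, 0.46 and 0.38) and Map3k14 (-0.49, 0.41 and 0.62). Higher in C57 and lower in Balb were Map3k4 (0.44, -0.20 and -0.32), Map3k7 (0.39, -0.12 and -0.48), Map4k3 (0.29, -0.26 and -0.51) and Map4k5 (0.08, -0.12 and -0.17). No group held enough libraries for a test of outlying samples.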

How the results depend on the processing

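Counts below are members past an adjusted p of 0.05 by limma, and no called member changed sign under any alternative. For Atf3KO against Scramble (10) the count was 6 with a filter of 5 RPKM and 2 with the study's thresholds. Of all genes 41.5% passed with that filter and 12.5% with the study's thresholds, against 41.2% in the main fit. For JunDKO against Scramble (5) it was 2 with no filter, with equal medians, with quantile normalization and with the replicate block, 3 with all 13 libraries fitted and 0 with the study's thresholds. In the first 5 of these settings 8.26%, 10.4%, 10.6%, 9.74% and 12.2% of all genes passed, against 11.7% in the main fit. For Atf3KO against JunKO (10) it was 6 with a filter of 5 RPKM, 3 with the 2 groups alone and 1 with the study's thresholds, and for JunDKO against JunKO (3) 1 with the replicate block and 1 with the study's thresholds. Between Atf3KO and JunKO 34.3% of all genes passed with that filter and 19.1% with the 2 groups alone, against 35.5%. Between JunDKO and JunKO 6.39% passed with the replicate block, against 8.14%. For Atf3KO against JunDKO (8) it was 5 with a filter of 5 RPKM, 13 with quantile normalization, 17 with limma-voom, 13 with the crossed block and 3 with the study's thresholds. In the first 4 of these settings 39.9%, 37.8%, 54.9% and 50.6% of all genes passed, against 40.7% in the main fit. For strain (0) it was 1 with all 13 libraries fitted, where 9.85% of all genes passed against 2.31% in the main fit. For TGEM Veh against Scramble (13) it was 5 with the 4 libraries alone and 4 with the study's thresholds. There 24.8% and 19.9% of all genes passed, against 49.9%. With 1 library left out the counts ran from 6 to 13 (Atf3KO), 0 to 0 (JunKO), 0 to 5 (JunDKO), 1 to 12 (Atf3KO against JunKO), 0 to 3 (JunDKO against JunKO), 5 to 10 (Atf3KO against JunDKO), 0 to 0 (KLA), 0 to 0 (strain) and 9 to 13 (TGEM Veh against Scramble). Fewer genes are tested under a stricter filter and fewer libraries fitted in the smaller sets, and otherwise the cause was not tested. The labels tie replicate numbers to no shared batch and each group has 2, so the numbers were not taken as pairs. Deviations of same-numbered libraries correlated at -0.12 to -0.215 with Atf3KO and 0.185 to 0.225 between the other groups. With the replicate block the counts were 10 (Atf3KO), 0 (JunKO), 2 (JunDKO), 9 (Atf3KO against JunKO), 1 (JunDKO against JunKO) and 8 (Atf3KO against JunDKO), and with the crossed block, chosen after seeing the data, 14, 14 and 13 for the Atf3KO contrasts with Scramble, JunKO and JunDKO. With the crossed block 51.3%, 46.9% and 50.6% of all genes passed in those contrasts. Depths of 1704872 to 1929988 reads in the Scramble and JunKO libraries limit genes at low RPKM.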
